A study of Mus musculus with 18 samples.

Results

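The sites described here are the H3K9me3 peaks of wild-type (WT) mouse embryonic fibroblasts (MEFs), set against the H3K27ac peaks of Kap1 knockout (KO) MEFs. All WT H3K9me3 peaks on autosomes were taken, apart from those in cluster 10 of the KRAB zinc finger protein genes (mm9 chromosome 4, bases 145039512 to 147201054). This left 14084 of the 14425 peaks of the list, since 189 lay in cluster 10 and 152 were not on autosomes. The Kap1 KO H3K27ac list held 36436 peaks, 35318 of them on autosomes. Each list came from 1 ChIP-seq library, so there is no spread between replicates and no p-value between genotypes was computed. Both genotypes were C57BL/6J embryonic fibroblasts carrying loxP-flanked Kap1 alleles, which had been excised in the KO cells and not in the WT cells. The study describes the KO cells, in its RNA-seq methods, as a stably growing clone kept for many passages beside its non-excised counterpart, so that a property of the clone and an effect of the deletion cannot be told apart. KAP1 and SETDB1 peaks came from Hepa 1.6, a mouse hepatoma cell line, with 1 library each.

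KAP1, also named TRIM28, is a corepressor that KRAB zinc finger proteins bring to the DNA they recognise, often within transposable elements and at imprinted loci. It recruits the methyltransferase SETDB1, which trimethylates lysine 9 of histone H3, and the resulting H3K9me3 is bound by HP1 proteins in closed chromatin. H3K27ac, by contrast, is laid down by p300 and CBP at active promoters and enhancers. The comparison asks whether places marked by H3K9me3 in WT cells carried H3K27ac once KAP1 was missing. In what follows, a trade site is a WT H3K9me3 peak that shared no base with a Kap1 KO H3K9me3 peak, had no WT H3K27ac peak within 1 kb, and had within 1 kb a Kap1 KO H3K27ac peak that shared no base with any WT H3K27ac peak (a Kap1 KO only peak). A reverse site is also a WT H3K9me3 peak that shared no base with a Kap1 KO H3K9me3 peak, but with the H3K27ac lists exchanged. It had a WT only H3K27ac peak within 1 kb and no Kap1 KO H3K27ac peak there. Such a site lost both peaks in Kap1 KO cells, and did not trade the marks in the other direction. Reverse sites could only come from the 534 sites with a WT H3K27ac peak within 1 kb, which limits their number. There were 644 trade sites and 86 reverse sites.

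To show what such a place looks like, 120 bases of the mm9 plus strand are given for 4 trade sites outside exons, the first of which had the highest Kap1 KO H3K27ac score. The other 3 had the highest WT H3K9me3 scores among those at the ceiling of the H3K27ac score. Each stretch is centred on the bases shared by the H3K9me3 and the H3K27ac peak, or on the middle of the gap between them, and capitals mark CpG dinucleotides, the usual targets of DNA methylation. Each is named after the closest protein-coding transcript start.
Ptger4, chr15:5227186-5227305: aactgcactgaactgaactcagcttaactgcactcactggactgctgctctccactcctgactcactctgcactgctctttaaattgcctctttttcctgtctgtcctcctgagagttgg
Gata2, chr6:88122479-88122598: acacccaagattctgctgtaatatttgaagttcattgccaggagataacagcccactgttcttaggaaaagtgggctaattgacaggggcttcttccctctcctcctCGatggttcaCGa
Gm6434, chr7:26652982-26653101: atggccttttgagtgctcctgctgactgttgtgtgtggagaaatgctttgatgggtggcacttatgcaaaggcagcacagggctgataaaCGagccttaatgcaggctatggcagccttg
Gse1, chr8:122862842-122862961: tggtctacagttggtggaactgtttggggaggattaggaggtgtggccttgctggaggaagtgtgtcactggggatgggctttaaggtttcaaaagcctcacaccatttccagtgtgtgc
The stretches near Ptger4 and Gse1 held 0 CpGs, that near Gm6434 held 1 and that near Gata2 held 2. None of the 4 sites lay within 1 kb of a protein-coding start, but that near Gm6434 lay 384 bp from the start of another annotated transcript.

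At distances up to 1 kb, WT H3K9me3 sites lay away from WT H3K27ac peaks, and close to the peaks that only Kap1 KO cells had. A WT H3K27ac peak was found within 1 kb of 534 of the 14084 sites (3.79%), where 10000 shuffles of the sites within their chromosome gave 1104 on average (SD over shuffles 31.8), a ratio of 0.484 (two-sided permutation p = 0.0001, adjusted p = 0.000114 over the 8 tests by the Benjamini-Hochberg method). A raw p of 0.0001 is the smallest that the shuffles can give, and the test asks where sites lie in these libraries, not whether another pair of cultures would differ. In Kap1 KO cells an H3K27ac peak was found within 1 kb of 1121 sites (7.96%), against 1065 in the shuffles (SD 31.0). This ratio of 1.05 did not pass the test (permutation p = 0.0726, adjusted p = 0.0726), and it turned to 0.762, which passed (adjusted permutation p = 0.00016), when only the 50% of peaks with the highest scores were kept. With a limit of 5 kb the count was 2825 sites (20.1%) against 2333 (SD 43.9), a ratio of 1.21 that passed (adjusted permutation p = 0.000114), while for WT H3K27ac it was 2173 sites (15.4%) against 2389 (SD 44.6), a ratio of 0.910 (adjusted permutation p = 0.000114). The last of these no longer passed with scores of at least 80, the cutoff that the methods state (ratio 0.968, adjusted permutation p = 0.238), or with sites under 5 kb apart merged (0.976, adjusted permutation p = 0.269), and the 1.21 no longer passed with the 50% of highest scores (1.06, adjusted permutation p = 0.0933).

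The contrast between genotypes was largest for the peaks found in only 1 of them. Kap1 KO only H3K27ac peaks lay within 1 kb of 673 sites (4.78%), against 189 in the shuffles (SD 13.8, range 133 to 241), a ratio of 3.57 (adjusted permutation p = 0.000114). WT only H3K27ac peaks lay within 1 kb of 96 sites (0.682%), against 214 (SD 14.5, range 157 to 271), a ratio of 0.449 (adjusted permutation p = 0.000114). By definition, Kap1 KO only peaks leave out those that share bases with WT H3K27ac peaks, from which the sites lay away (ratio 0.484). Leaving these out raises the ratio, so that 3.57 is partly set by the definition. The whole Kap1 KO list gave 1.05. At 5 kb the counts were 1273 sites against 524 for Kap1 KO only peaks (ratio 2.43) and 484 against 607 for WT only peaks (ratio 0.797), both with an adjusted permutation p of 0.000114. The ratio for Kap1 KO only peaks fell from 4.64 among sites that shared a base with such a peak (456 against 98.2) to 2.15 at 10 kb (1948 against 908). For WT only peaks it went the other way, from 0.276 with a shared base (30 sites against 109) to 0.912 at 10 kb (957 against 1049). The Kap1 KO list as a whole stayed between 1.01 with a shared base and 1.34 at 10 kb. The WT list as a whole went from 0.278 with a shared base (194 sites against 697) to 1.12 at 10 kb (3968 against 3552, SD 51.9), above the shuffled mean. The steps other than 1 and 5 kb were not tested.

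**Figure D1:**
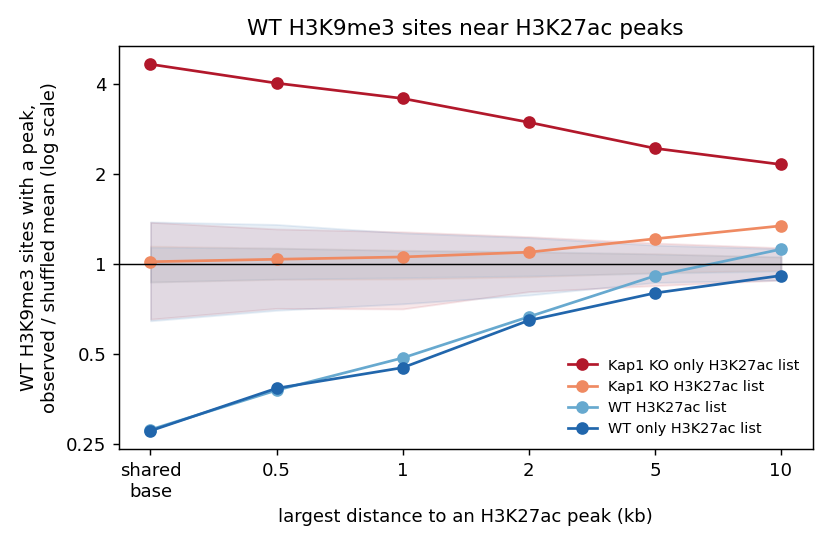
Ratio of the number of WT H3K9me3 sites with an H3K27ac peak to the mean of 10000 shuffles (vertical axis, log scale), by the largest distance allowed (horizontal axis, kb). Each line is 1 H3K27ac list, shaded bands span the lowest to the highest shuffle of each list, and the line of Kap1 KO only peaks falls from 4.64 to 2.15 while that of WT only peaks climbs from 0.276 to 0.912.

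Seen from the H3K27ac peaks, 971 Kap1 KO peaks lay within 1 kb of a WT H3K9me3 site, and 552 of them (56.8%, exact Clopper-Pearson 95% confidence interval 53.7% to 59.99%) were Kap1 KO only. Over all autosomal Kap1 KO H3K27ac peaks the share was 22.5%, and among the peaks farther than 1 kb from any site it was 21.5% (interval 21.1% to 21.96%). Among the 2604 Kap1 KO peaks within 5 kb of a site the share was 38.4% (interval 36.5% to 40.3%). A larger share of Kap1 KO only peaks close to sites also follows in part from the few WT H3K27ac peaks there. In WT cells the same count went slightly the other way. Of the 485 WT H3K27ac peaks within 1 kb of a site, 85 were WT only (17.5%, interval 14.2% to 21.2%), against 23.0% of all autosomal WT H3K27ac peaks. The Kap1 KO peaks close to a site had a lower median score than the others (349 within 1 kb and 592 farther away), whereas the WT peaks within 1 kb of a site did not (704 and 683). With a limit of 5 kb the peaks close to a site had the lower median in both genotypes (396 and 597 in Kap1 KO cells, 612 and 686 in WT cells). The score is the value that the peak caller gives each peak, which grows with the evidence against the input and stands at 3100 or slightly above for many H3K27ac peaks, so that it ranks peaks and does not measure acetylation. These and all following intervals count peaks or sites within a library as if they were independent, and cover counting error only.

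In Kap1 KO cells 13649 of the 14084 sites (96.9%, interval 96.6% to 97.2%) shared no base with an H3K9me3 peak, and 435 did. The Kap1 KO H3K9me3 list was shorter throughout, with 4319 peaks against 14425, and a site without a peak may hold signal below the threshold, since read counts were not analysed here and the depth is unknown. Most of the 13649 sites gained nothing that these lists show: 12420 (91.0%) had no H3K27ac peak within 1 kb in either genotype. Another 387 (2.84%) had one in both genotypes, 714 (5.23%) in Kap1 KO cells alone and 128 (0.938%) in WT cells alone. The 644 trade sites are those of the 714 whose Kap1 KO peak shared no base with a WT peak anywhere along its length, and they made up 4.72% of the 13649 (interval 4.37% to 5.09%). The 86 reverse sites made up 0.630% (interval 0.504% to 0.778%). Among the 435 sites that kept an H3K9me3 peak, 8 had a Kap1 KO only H3K27ac peak within 1 kb (1.84%, interval 0.797% to 3.59%), against 665 of the 13649 without the mark (4.87%, interval 4.52% to 5.25%), and the intervals did not overlap. Kap1 KO H3K9me3 peaks were densest on chromosome 10 (9.39 per Mb, beside a median of 0.897). There, Kap1 KO only H3K27ac peaks (314) were fewer than WT only peaks (690), and the comparison took no account of the chromosome. The trade site at the edge of the 1 kb limit, near Pdia4, lay 997 bp from its H3K27ac peak, and the first site beyond it, near Cks2, lay 1005 bp away.

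The trade sites were marked by 529 different Kap1 KO only H3K27ac peaks, out of 7945 such peaks on autosomes. At 427 of the 644 sites (66.3%) both marks shared bases, so that the acetylated stretch lay on the former H3K9me3 peak and not only beside it. At the reverse sites, where both peaks were those of WT cells, they shared bases at 26 of 86 (30.2%). The H3K27ac peaks at trade sites had a median score of 180 and a median width of 1468 bp, against 126.5 and 1237 bp for the other 7416 Kap1 KO only peaks, and 580 and 1929 bp for all Kap1 KO H3K27ac peaks on autosomes. Of the Kap1 KO only peaks at the ceiling score of 3100, 18 of 68 lay at trade sites. None of the 34 WT only peaks at that score lay at a reverse site. Since only 77 of all 8131 WT only peaks on autosomes lay at reverse sites, few or none were to be foreseen.

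Trade sites lay on every autosome, and the excess of Kap1 KO only peaks around WT H3K9me3 sites had the same direction on each. The number of sites within 1 kb of such a peak was above the number expected from random placement in all 19 autosomes, from 1.65 times on chromosome 18, which held 81 sites, to 8.05 times on chromosome 16, with a median of 3.51. These extremes rest on 3 sites on chromosome 18 and 9 on chromosome 16. The count for WT only peaks was below the expected number on all 19, with a median ratio of 0.299 and a highest ratio of 0.877 on chromosome 12. Some of these counts were so small that a single site decides the direction, with none against 0.323 expected on chromosome 18 and 2 against 2.28 on chromosome 12. Trade sites outnumbered reverse sites on each autosome, and 6 autosomes had no reverse site. Chromosome 8 held the most trade sites (88), followed by chromosomes 11 (76), 6 (65), 15 (55) and 17 (53), and the share of sites that were trade sites ran from 2.19% on chromosome 4 to 6.71% on chromosome 13. The H3K27ac lists also differed by whole chromosome. Kap1 KO only and WT only peaks numbered 273 and 638 on chromosome 4, and 314 and 690 on chromosome 10, which had the next lowest share (2.97%). They numbered 528 and 95 on chromosome 18, but 334 and 501 on chromosome 13. How far these numbers set the counts of trade and reverse sites was not tested. The WT H3K9me3 sites themselves were spread unevenly, between 0.892 per Mb on chromosome 18 and 15.5 per Mb on chromosome 8, while WT H3K27ac peaks varied less, between 9.13 and 22.5 per Mb. The 7 chromosomes with at least 5 sites per Mb, a limit set after seeing the values, and the other 12 had nearly the same share of trade sites (4.65% and 4.43%), and the ratio for Kap1 KO only peaks was 3.34 in the first and 4.09 in the second.

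**Figure D2:**
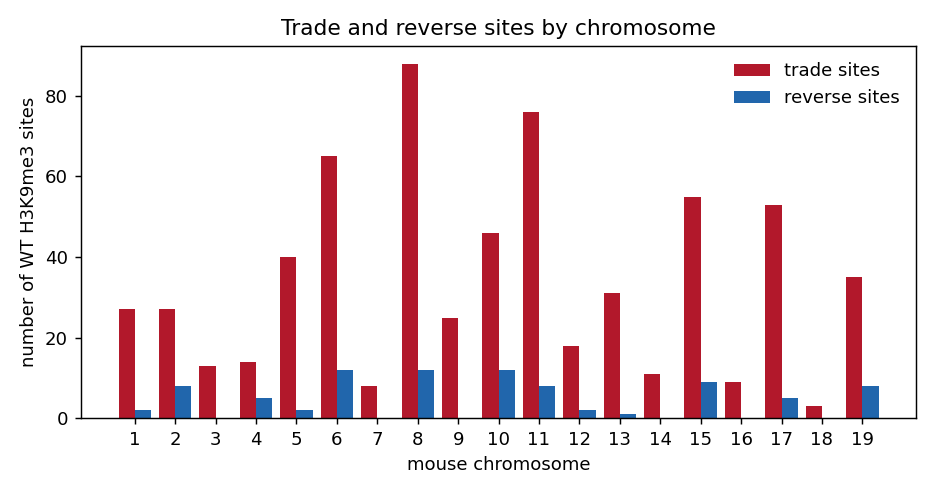
Number of trade sites (red bars) and reverse sites (blue bars) on each of the 19 autosomes. Trade sites outnumber reverse sites on every autosome, with the most on chromosome 8 (88 against 12).

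The share of sites that traded the marks was larger among the higher H3K9me3 peaks. The sites were cut into 4 groups of 3521 by their WT H3K9me3 score. In the group with the lowest scores (59.1 or less) 121 were trade sites (3.44%, interval 2.86% to 4.09%), in the next 136 (3.86%), in the one above it 170 (4.83%), and in the group with the highest scores (124 to 3222) 217 (6.16%, interval 5.39% to 7.01%). In 4 such groups by width, the shares ran from 3.32% for the narrowest to 5.94% for the widest. Reverse sites showed no such order, with 20, 24, 22 and 20 in the groups by score. Trade sites had a median WT H3K9me3 score of 93.6 (quartiles 63.8 and 152) and a median width of 547 bp, against 79.1 (quartiles 58.8 and 122) and 491 bp for the other 13005 sites without H3K9me3 in Kap1 KO cells.

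Trade sites lay within and between genes about as often as those 13005 sites. Between annotated genes lay 443 (68.8%, interval 65.1% to 72.4%) and 8815 (67.8%), in introns of protein-coding genes 145 (22.5%, interval 19.3% to 25.9%) and 2676 (20.6%). Within 1 kb of a protein-coding start lay 20 trade sites (3.11%, interval 1.91% to 4.76%), against 5.00% of the others (interval 4.63% to 5.39%), and with the starts of all annotated genes the shares were 5.59% (interval 3.95% to 7.66%) and 6.54% (interval 6.12% to 6.97%). The median distance to the closest protein-coding start was 24450 bp against 25756 bp. More than 50 kb from any such start lay 27.6% of trade sites (interval 24.2% to 31.3%) and 33.0% of the others (interval 32.1% to 33.8%). Reverse sites stood out, with 25 of 86 (29.1%, interval 19.8% to 39.9%) within 1 kb of a start. Sites with H3K27ac in both genotypes lay in between, with 59 of 387 (15.2%, interval 11.8% to 19.2%). The GC content of trade sites (median 47.0%) was that of the other sites (46.9%), while reverse sites had 52.6%.

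A KAP1 peak of Hepa 1.6 cells covered 163 of the 644 trade sites (25.3%, interval 21.99% to 28.9%), against 1837 of the 13005 others (14.1%, interval 13.5% to 14.7%). Since KAP1 peaks were also more frequent at higher H3K9me3 peaks, the shares were compared within the same 4 groups by score. From the lowest to the highest group they were 17.4%, 24.3%, 21.8% and 33.2% of trade sites, against 7.95%, 10.4%, 14.4% and 24.3% of the others, with intervals that did not overlap in any of the 4 groups. The share was not particular to trade sites, as it was 21.96% (interval 17.9% to 26.4%) among the sites with H3K27ac in both genotypes and 23.3% (interval 14.8% to 33.6%) among reverse sites. The entries of the SETDB1 list, all of which are also entries of the KAP1 list, covered 49 trade sites (7.61%, interval 5.68% to 9.93%) and 593 of the others (4.56%, interval 4.21% to 4.93%). KAP1 binding was measured in hepatoma cells and not in MEFs.

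The sequences of trade sites were less often repeated among the other H3K9me3 sites. Each site was compared with all others by blastn, a search for similar sequences, and a match needed 80% identity over 200 bp. Such a match to at least 1 other site was found for 284 trade sites (44.1%, interval 40.2% to 48.0%) and 6870 others (52.8%, interval 52.0% to 53.7%), and matches to 10 or more other sites for 175 (27.2%, interval 23.8% to 30.8%) and 5117 (39.3%, interval 38.5% to 40.2%). Fewer matches were not particular to trade sites. Among the sites with H3K27ac in both genotypes, 32.0% (interval 27.4% to 36.9%) had a match to at least 1 other site and 19.6% to 10 or more. Among reverse sites the shares were 27.9% (interval 18.8% to 38.6%) and 17.4%. The difference between trade sites and the others in matches to at least 1 site was seen in the 3 groups with the lower scores (33.9% against 48.9%, 33.8% against 53.2% and 41.2% against 51.7%, with intervals that did not overlap) and not in the highest (58.5%, interval 51.7% to 65.2%, against 57.7%). The hexamer TGCCGC, which the imprinting factor ZFP57 recognises when methylated, stood on either strand in the middle 300 bases of 24 trade sites (3.73%, interval 2.40% to 5.49%), of 905 others (6.96%, interval 6.53% to 7.41%) and of 6.75% of all sites. TGANTCA, the motif of the AP-1 factors that are abundant in fibroblasts, stood on either strand in the middle 300 bases of 123 of the 529 H3K27ac peaks at trade sites (23.3%, interval 19.7% to 27.1%), of 29.7% of the other Kap1 KO only peaks (interval 28.6% to 30.7%) and of 23.4% of all Kap1 KO H3K27ac peaks. These searches describe letters in a window and not binding.

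**Figure D3:**
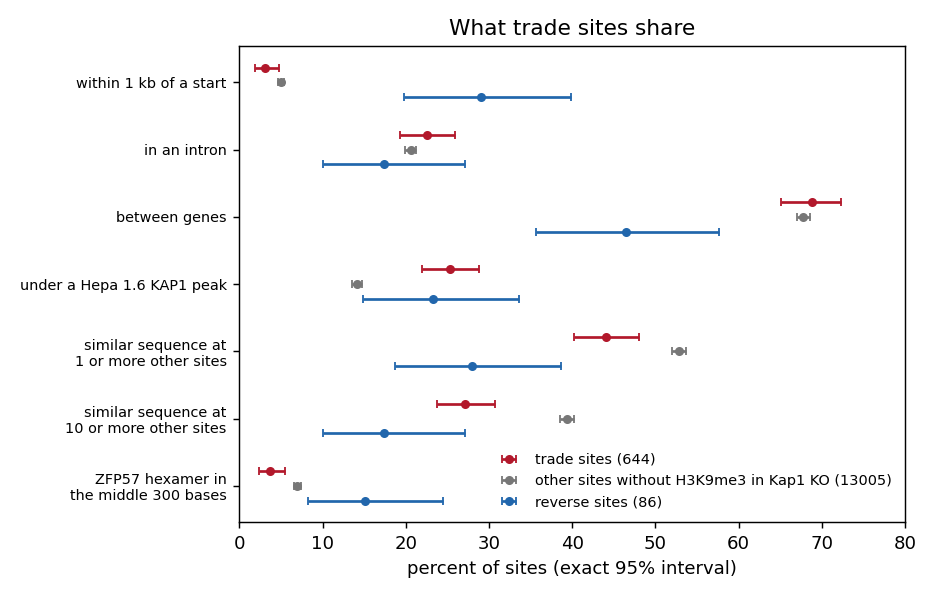
Percent of trade sites (red), of the other sites without H3K9me3 in Kap1 KO cells (grey) and of reverse sites (blue) with each property, with exact 95% confidence intervals as bars. Trade sites lie to the right of the grey points for Hepa 1.6 KAP1 peaks (25.3% against 14.1%) and to the left for similar sequences, and reverse sites stand out for transcript starts (29.1%).

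The 12 trade sites with the highest Kap1 KO H3K27ac scores all stood at the ceiling, between 3100 and 3120. In all, 27 trade sites had a score of 3100 or above, so that those after the first were ordered by their WT H3K9me3 score. By their definition none had an H3K9me3 peak in Kap1 KO cells or an H3K27ac peak within 1 kb in WT cells. The first lay 32837 bp upstream of the closest start, that of Ptger4, which encodes a receptor for prostaglandin E2, and had a WT H3K9me3 score of 77.3 at bases 5227024 to 5227466 of chromosome 15. It lay under a Hepa 1.6 KAP1 peak, as did the site at bases 26652503 to 26653580 of chromosome 7, closest to Gm6434, with a WT H3K9me3 score of 211 and an H3K27ac peak 9056 bp wide. An intron site (chromosome 8, 122862602 to 122863201, score 200) and its neighbour (122863203 to 122863744, score 101) lay under the same H3K27ac peak, and the closest start, that of Gse1, was 149565 bp from the first of them. The others of the 12 were closest to Phox2a, a homeobox gene of noradrenergic neurons (chromosome 7, 108955362 to 108956079, score 150), Ano6, a phospholipid scramblase (chromosome 15, 95822200 to 95822860, score 129), Slc1a4, a neutral amino acid transporter (chromosome 11, 20190966 to 20191589, score 105), 5830454E08Rik (chromosome 9, 120531340 to 120531998, score 103), Scd3, a stearoyl-CoA desaturase (chromosome 19, 44301981 to 44302593, score 96.4), and Myo3b, a class III myosin (chromosome 2, 70047509 to 70048005, score 94.6), along with a pair of sites upstream of Gata2. Their distances from these starts ran from 9712 bp at Scd3 to 113154 bp at Myo3b, and a closest start is a position and not a known target. Starts of annotated transcripts other than protein-coding ones lay closer to the Gm6434 site (384 bp) and the Slc1a4 site (580 bp).

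Upstream of Gata2, which encodes a transcription factor of blood stem cells and endothelium, 4 trade sites lay under or beside a single Kap1 KO only H3K27ac peak of 4848 bp with a score of 3100. Their WT H3K9me3 scores were 262, 88.5, 117 and 66.8, in order from 21813 bp to 16249 bp upstream of the start. The H3K27ac peaks closer to Gata2 were found in both genotypes, with scores of 93 and 288 upstream of the start and of 2120 and 1611, then 3100 and 2684, within the gene, in WT and Kap1 KO cells respectively. Within 40 kb of the start no H3K9me3 peak was listed in Kap1 KO cells. The WT cells had 2 more H3K9me3 peaks past the end of the gene, with scores of 91.4 and 177, and no H3K27ac peak was called beside them in Kap1 KO cells.

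The 6 trade sites with the highest WT H3K9me3 scores were wide peaks, and all 6 lay under a Hepa 1.6 KAP1 peak. The highest (2516) was 6524 bp wide, within Arhgap10, at bases 79969463 to 79975986 of chromosome 8. In Kap1 KO cells no H3K9me3 peak remained there, and an H3K27ac peak of 6027 bp with a score of 2877 shared bases with it, as it did with 3 further WT H3K9me3 peaks beside it. A site 15436 bp upstream of Ptprs, a receptor tyrosine phosphatase gene (chromosome 17, 56631342 to 56636462), had an H3K9me3 score of 1823 and an H3K27ac peak of score 1016 at 188 bp. A site upstream of Sept9, a septin gene (chromosome 11, 117041292 to 117044574), had 1177 and 455. The remaining 3 traded a high H3K9me3 peak for a low H3K27ac peak: Hoxa13, a homeobox gene of distal limbs (1385 and 66.2), a site near Cd300ld, an immune receptor gene (1291 and 68.3), and a site near Prl2c3, a prolactin-family gene (1135 and 134). The last 2 had similar sequences at 205 and 318 other sites.

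**Figure D4:**
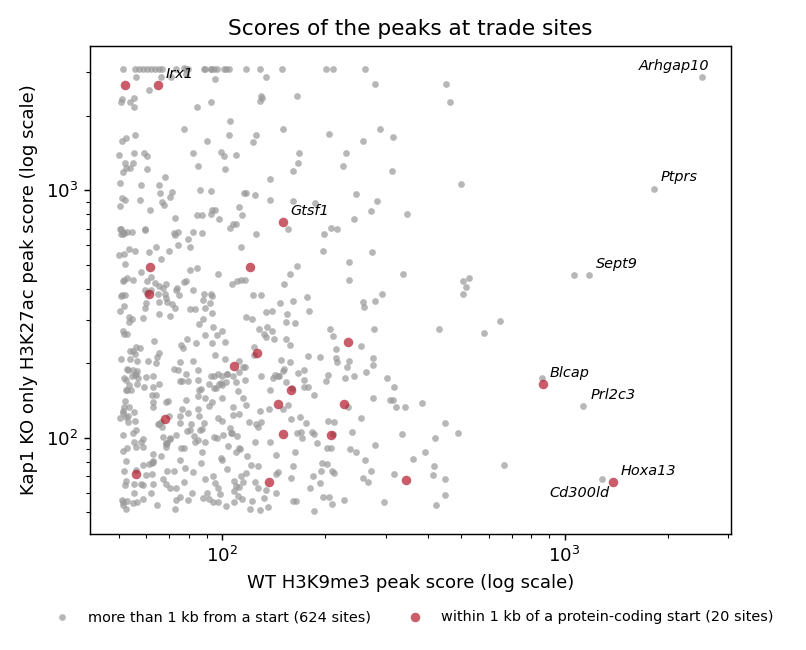
WT H3K9me3 peak score (horizontal axis) and highest Kap1 KO only H3K27ac peak score (vertical axis) of the 644 trade sites, both on log scales. Each point is 1 site, red points are the 20 sites within 1 kb of a protein-coding transcript start, and the row of points at the top is the ceiling of 3100. Arhgap10 stands apart with 2516 and 2877.

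After joining trade sites less than 100 kb apart, the 644 sites fell into 447 stretches, 322 of them with a single site. The stretch with the most sites (8) ran over 165615 bp of chromosome 13 next to Prl2c3 and Gm2399, with WT H3K9me3 scores from 51.8 to 1135 and H3K27ac scores of at most 334. A stretch of 7702 bp on chromosome 17, whose closest start was that of Ddx11, a DNA helicase gene, 51669 to 58788 bp away, held 7 sites with H3K9me3 scores from 55.1 to 230 and an H3K27ac score of up to 1416. Another held 7 sites in 8289 bp inside Tdrd9 on chromosome 12, from base 113253752 to base 113262040. Their closest protein-coding start was not that of Tdrd9 but that of BC048943, 34790 to 42679 bp away. Tdrd9 encodes an RNA helicase of the piRNA pathway, which silences transposons in germ cells. The WT H3K9me3 scores of these 7 were 73.7, 66.9, 62.6, 323, 120, 123 and 51.9 in order along the gene, and their H3K27ac peaks had scores of 51.4 to 402.

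The 20 trade sites within 1 kb of a protein-coding start belonged to 18 genes, and 7 of them covered the start itself. The highest H3K27ac scores were at Irx1, an Iroquois homeobox gene, where WT cells had an H3K9me3 peak 553 bp upstream of the start (score 64.9) and another 632 bp downstream (score 51.9). In Kap1 KO cells neither peak was found, and an H3K27ac peak of 3877 bp with a score of 2657 began between them, where WT cells had none within 15 kb. At Gtsf1, which encodes a piRNA factor of germ cells, an H3K9me3 peak over the start (score 150) faced an H3K27ac peak of score 741 at 686 bp. At Cyp21a1, the steroid 21-hydroxylase gene, 2 sites (scores 120 and 61.5) shared an H3K27ac peak of score 488. Ppp4r4, a phosphatase subunit gene, had 232 for H3K9me3 and 244 for H3K27ac at the start, and Homer3, a postsynaptic scaffold gene, had 108 and 195. At the other starts, those of Prrt3, Gm10142, Blcap, Ms4a10, Zfp335, Ttc7, Mthfsd, Zfp958, D6Mm5e, Fev, Fcgr3, Hoxa13 and Gm5805, the H3K27ac scores ran from 65.9 to 382. The median over the 20 was 161 for H3K27ac and 141 for H3K9me3.

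**Figure D5:**
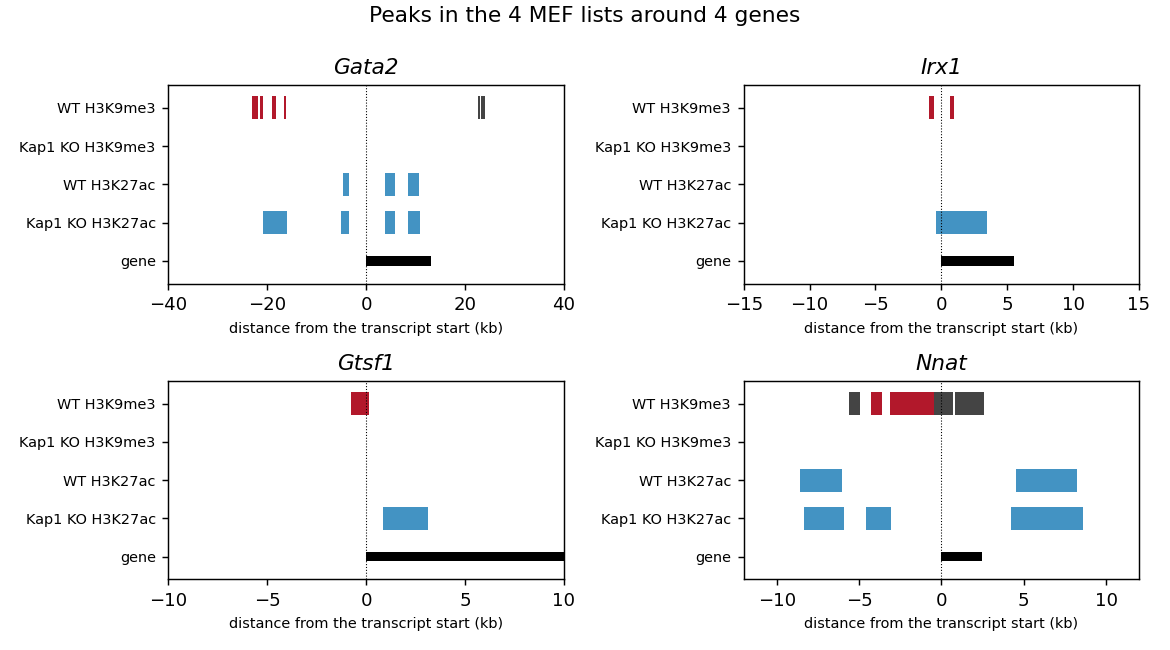
Peaks of the 4 MEF lists around the transcript starts of Gata2, Irx1, Gtsf1 and Nnat, by distance from the start in kb, with the gene pointing to the right. Red bars are trade sites, grey bars other WT H3K9me3 peaks, blue bars H3K27ac peaks and black bars genes, and in all 4 windows the Kap1 KO H3K9me3 row is empty.

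Among imprinted genes, at whose control regions KAP1 helps to keep DNA methylation, both H3K9me3 sites and trade sites had a larger share than among all protein-coding genes. Of the 40 genes of the list found in the annotation, 22 had a WT H3K9me3 site within 5 kb of the gene body (55.0%), against 14.5% of the 21396 protein-coding genes of these autosomes. A trade site lay within 5 kb of 3 of them (7.50%), against 0.944% of the protein-coding genes, but Blcap and Nnat, which lies within Blcap, shared the same 2 sites, so that the count rests on 2 loci. The genes of the list were also longer, with a median of 28.6 kb against 15.5 kb. At Blcap and Nnat, WT cells had H3K9me3 peaks with scores of 118, 91.5, 864, 259 and 745 in a row, none of which was found in Kap1 KO cells. Those with scores of 91.5 and 864 faced a Kap1 KO only H3K27ac peak of 1550 bp with a score of 165. The peak of score 864, at bases 157382687 to 157385347 of chromosome 2, lay under a Hepa 1.6 KAP1 peak. The other locus was Herc3, with an H3K9me3 score of 93.1 and an H3K27ac peak of score 375 at 15 bp, 3645 bp from the start of the gene. A reverse site lay within 5 kb of 1 of the 40 genes of the list, beside 47 of the 21396 protein-coding genes. This was Slc38a4, an imprinted amino acid transporter gene.

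Of the germline genes of the list, 8 of 32 had a WT H3K9me3 site within 5 kb (25%, beside 14.5% of all protein-coding genes). Only 1 of them, Tdrd9, had trade sites (3.13%, beside 0.944%), which lay within the gene body and not near its start. The germline genes were also longer, with a median of 23.6 kb against 15.5 kb. Of 430 C2H2 zinc finger genes, 103 had a site (24.0%, beside 14.5% of all protein-coding genes), and 4 had a trade site (0.930%, beside 0.944%). These were Zfp335, Zfp958, Zbtb38 and Zbtb2. At Zfp958, 3 H3K9me3 peaks with scores of 151, 211 and 336 lay along the gene. The first 2 shared bases with an H3K27ac peak of score 103, and the third lay 80 bp from it. Only 1 trade site (0.155%, interval 0.00393% to 0.862%) lay over a KZFP/rGU, the arrays of zinc finger repeats that mark KRAB zinc finger genes and their relatives, against 130 of the other 13005 sites (1.00%, interval 0.836% to 1.19%). Only 560 of these elements, a part of the set used by the study, were analysed here. That 1 site was the one with a score of 336 in Zfp958. Among the genes of the KAP1 silencing machinery 2 of 27 had a WT H3K9me3 site (7.41%, beside 14.5% of all protein-coding genes) and none a trade site (beside 0.944%).

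The reverse sites with the highest WT H3K27ac scores lay at Slc38a4 and Zfp423. The first was 938 bp downstream of a start of Slc38a4 (H3K9me3 score 81.0, H3K27ac score 2626), and the next 2 lay upstream of Zfp423, a zinc finger gene of the adipocyte lineage (H3K9me3 scores 369 and 69.9), with 1 WT only H3K27ac peak of score 2625. The 86 sites faced 77 WT only H3K27ac peaks with a median score over sites of 138, against 189 over the trade sites. Within 5 kb of the gene body, 47 of 21396 protein-coding genes (0.22%) had a reverse site.

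The cell type label was checked at transcript starts. Of 23 fibroblast marker genes, 19 had a Kap1 KO and 20 a WT H3K27ac peak within 1 kb of a start, against 53.8% and 55.2% of all protein-coding genes, and in Kap1 KO cells Dcn, Lum, Postn and Tagln had none. Of 16 hepatocyte markers only Apob had a peak, in both genotypes, and of 14 markers of blood, endothelial, epithelial and pluripotent cells only Pecam1 did. None of these markers had a WT H3K9me3 site within 1 kb of a start, where 2.73% of all protein-coding genes had one. The start of Trim28, the gene of KAP1, carried H3K27ac in both genotypes, which says nothing about the excised exons.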

How the data were processed

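ChIP-seq was performed on 1 library per mark and genotype. The authors used Bowtie2 2.2.1 (sensitive-local) to align reads to mm9 and MACS 1.4, with total input as control, to call peaks. Both versions come from the submitters' processing notes. The deposited lists give a score for each peak. The stated cutoff is a score of 80, but the MEF lists went down to 50. All peaks were used, so the lowest may be noise, and no read counts were analysed, so depth is unknown.

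Distances were taken between peak edges. Sites were shuffled 10000 times within their chromosome, keeping widths and leaving out cluster 10, and p-values were two-sided. P-values were adjusted over the 8 tests. Tested on simulated data for Kap1 KO only peaks within 1 kb of 14084 sites, 20 of 20 lists with an excess passed and 14 of 200 lists without one. The excess was 200 sites set on such peaks, beside a shuffled mean of 189 (SD 13.8), so that passing was to be foreseen. Lists without it were placed at random as in the shuffles, so neither kind checks the test on clustered sites. Numbers expected on single chromosomes were computed from random placement without drawing shuffles. Genes were those of GENCODE vM1 for mm9, and KZFP/rGUs 560 elements whose coordinates were at hand, a part of the study's set. The masked share of sequences was not computed, since the reference used here is not masked. Named sites were the 12 with the highest H3K27ac scores (ties by H3K9me3 score), the 6 with the highest H3K9me3 scores, the 3 stretches with the most sites, the 20 at starts, 3 reverse sites and every gene of the lists with a trade site. The gene lists were written by hand. The sites, lists and tests were chosen with earlier results of these data known, and the motifs, the sequence comparison and the breakdowns by score and chromosome were added after the data had been examined. Alternatives are given in the closing section.

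Shuffles ran in numba 0.67.0, intervals came from scipy 1.17.1 and adjusted p-values from statsmodels 0.14.6, under Python 3.11.15. Sequences were compared with blastn 2.17.0 and plots drawn with matplotlib 3.10.9.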

Additional observations from a re-analysis of the deposited data

How the results depend on the processing

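The lower count of WT H3K27ac peaks within 1 kb, the excess of Kap1 KO only peaks at 1 and 5 kb and the lower count of WT only peaks at 1 kb kept their direction and passed the test under all 8 alternatives run, with ratios of 0.412 to 0.534, 3.07 to 3.97, 2.25 to 2.71 and 0.428 to 0.601. The ratio for all Kap1 KO H3K27ac peaks at 1 kb depended on the settings. It turned to 0.762, which passed the test, with the 50% of peaks with the highest scores, and passed the test with scores of at least 80 (1.10) and with cluster 10 kept (1.06). At 5 kb, it was 1.06 and no longer passed with the 50% of highest scores, and neither did WT H3K27ac peaks with scores of at least 80 (0.968) or with sites under 5 kb apart merged (0.976), nor WT only peaks with the 50% of highest scores (0.883).

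Trade sites numbered 976 and reverse sites 325 with a limit of 5 kb, 332 and 42 with scores of at least 80, and 130 and 29 with the 50% of highest scores. When both marks had to share a base, reverse sites numbered 27. The cause of these changes was not tested, apart from the shorter lists that a score limit leaves. No paired analysis was possible because each list analysed comes from 1 library, and the liver samples that share replicate numbers were not analysed here. Without replicates or read counts, a missing peak cannot be told from a weak one, and nothing here separates the deletion from the clone.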
